A study of Rattus norvegicus with 11 samples.

Results

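The 4 receptors described here are those for the pituitary glycoprotein hormones, Fshr, Lhcgr and Tshr, and that for gonadotropin-releasing hormone, Gnrhr. They were selected by gene symbol, and each symbol stood on 1 of the 25275 rows of the count table. RNA came from retroperitoneal white adipose tissue of 11 ovariectomized female Wistar rats, 1 library per rat. All rats received degarelix, a drug that blocks the GnRH receptor, and had pumps implanted after 6 weeks of western diet begun at 10 weeks of age. The pumps of 5 rats held FSH (6 µg per kg per day, degarelix plus FSH), and those of 6 rats held vehicle (degarelix only). Feeding was limited for 12 days and free for 7 days, and at 19 weeks of age the rats were fasted for 4 h and their fat was collected. Both groups were ovariectomized and given degarelix, so the comparison is of FSH added on that background. It bears on which of the receptors has a transcript in fat through which FSH or degarelix could act there directly.

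FSH, luteinizing hormone (LH) and thyroid-stimulating hormone (TSH) share the alpha subunit encoded by Cga, and a beta subunit of its own gives each hormone its receptor specificity. The receptors FSHR, LHCGR and TSHR are closely related G protein-coupled receptors with a large leucine-rich hormone-binding domain outside the cell, and they act mainly through Gs and cAMP. FSHR is best known from ovarian granulosa cells and Sertoli cells, LHCGR from theca, luteal and Leydig cells, and TSHR from thyroid follicle cells and also from fat cells. GNRHR is best known from pituitary gonadotrope cells, acts mainly through Gq, and is the target of degarelix.

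The promoter windows of the receptors with no counts are given first, because these are the genes for which no read was counted. They are upstream sequence on the plus strand from RefSeq on build GRCr8, Fshr at chr6:10952079-10952328, Lhcgr at chr6:11415165-11415360 and Gnrhr at chr14:22211416-22211665. Capitals mark matches to the motifs searched on both strands. These were the E-box CACGTG, the nuclear receptor half-site AGGTCA, its extended form CAAGGTCA, which overlaps it, the GC box GGGCGG, the TATA box written as TATAAA, and the cAMP response element TGACGTCA.
Fshr: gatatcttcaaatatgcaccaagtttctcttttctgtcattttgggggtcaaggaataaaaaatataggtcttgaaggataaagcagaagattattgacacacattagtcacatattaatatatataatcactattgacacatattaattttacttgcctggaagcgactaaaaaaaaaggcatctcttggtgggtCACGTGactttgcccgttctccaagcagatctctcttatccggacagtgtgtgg
Lhcgr: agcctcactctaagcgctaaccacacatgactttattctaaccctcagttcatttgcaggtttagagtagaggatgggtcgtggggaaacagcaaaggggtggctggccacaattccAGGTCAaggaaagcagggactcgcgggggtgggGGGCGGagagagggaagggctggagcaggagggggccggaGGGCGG
Gnrhr: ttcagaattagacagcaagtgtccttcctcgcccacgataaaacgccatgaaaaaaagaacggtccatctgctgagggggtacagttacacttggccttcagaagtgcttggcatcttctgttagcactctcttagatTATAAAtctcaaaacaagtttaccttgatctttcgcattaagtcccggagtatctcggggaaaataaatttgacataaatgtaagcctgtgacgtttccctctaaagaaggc

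The Fshr window held an E-box whose first base lies 54 bases before the start, and 5.59% of all 33469 promoter windows of 250 bases held this motif. The Lhcgr window is 196 bases long, cut before an earlier RefSeq start of the gene. It held AGGTCA at 133 bases and GGGCGG at 100 and 60 bases before a later start, from which the distances were counted. The last GGGCGG ends the printed window, directly before the earlier start. These motifs were found in 14.1% and 30.5% of all windows of 250 bases, which are longer than this one. The Gnrhr window held TATAAA at 112 bases before the start, as did 12.9% of windows. The cAMP response element (1.59% of windows) and CAAGGTCA (1.33%) were in none of these 3 windows. The GC content was 36.8% for Fshr, 59.2% for Lhcgr and 42.4% for Gnrhr. These matches describe the letters only. Nr5a1, which encodes a nuclear receptor known to act on gonadal and pituitary genes through such half-sites, had 0 counts in all 11 libraries. Nr5a2, of the same nuclear receptor family, had 710 counts and was found in every rat. It averaged 3.54 ± 0.621 CPM with FSH and 3.55 ± 1.18 CPM without it (SD). The part of either gene in the rows at 0 was not tested.

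Fshr (ENSRNOG00000016783), Lhcgr (ENSRNOG00000016712) and Gnrhr (ENSRNOG00000002011) had 0 counts in each of the 5 degarelix plus FSH libraries and in each of the 6 degarelix only libraries. Total counts lay between 13163021 and 19837706 in the degarelix plus FSH libraries and between 16452117 and 23694602 in the degarelix only libraries (p = 0.0649, two-sided exact permutation test over 462 splits of the rats). With 3 counts taken as the upper limit of a count of 0, a receptor could have reached 0.151 to 0.228 CPM (counts scaled to a common library total) in a degarelix plus FSH rat and 0.127 to 0.182 CPM in a degarelix only rat. Summed over the rats of a group, the limit was 0.0367 CPM for degarelix plus FSH and 0.0251 CPM for degarelix only, and over all 11 libraries, with 201535684 counts, it was 0.0149 CPM. These limits cover counting error only. No group difference could be tested for the 3 genes, since no library held a count of them, and they did not enter the test across genes.

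A row of 0 was common in this table, and it was not made by a minimum count. Of the other rows, 592 held a single count over all 11 libraries, while 8240 rows (32.6%) held none. A 0 is also not proof that a transcript is missing from the tissue. The 13 mitochondrially encoded rows all held 0 counts. Pnpla2, which encodes the triglyceride lipase ATGL and is usually abundant in fat, reached only 1.80 to 4.01 CPM in degarelix plus FSH rats and 2.25 to 3.34 CPM in degarelix only rats. The counting program is not stated in the labels, and its part in rows at 0 was not tested.

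Tshr (ENSRNOG00000003972) was the receptor with a transcript, with 45967 counts over the 11 libraries. In the degarelix plus FSH rats it held 214, 210.0, 219, 273 and 187 CPM (relative to the TMM-scaled library total), from 2949 to 4642 counts per library. In the degarelix only rats it lay between 205 and 256 CPM, with a median of 236. The groups overlapped: FSH replicate 4 was the highest of the 11 rats and FSH replicate 5 the lowest, and the other 3 degarelix plus FSH rats lay inside the range of the degarelix only rats. Counting error was 1.33% to 1.84% of the value in a library, less than the spread between rats, whose coefficient of variation was 14.5% with FSH and 9.35% without it.

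Tshr averaged 221 ± 32.0 CPM in degarelix plus FSH rats (SD, n = 5) and 233 ± 21.8 CPM in degarelix only rats (SD, n = 6). The log2 change was -0.08 ± 0.10 (SE), with an adjusted p of 0.652 in edgeR's quasi-likelihood test adjusted over 12846 genes (unadjusted p = 0.420). Its 95% interval ran from -0.30 to 0.13 on the log2 scale, or from 0.815-fold to 1.10-fold. Tshr did not pass with DESeq2 (adjusted p = 0.631) or limma-voom (adjusted p = 0.644) either. So 0 of the 1 receptor tested passed, where 2.27% of all genes tested did (1.21% as higher and 1.07% as lower). The interval gives the changes that these values allow, and the smallest change that these rats could have shown was not determined. In bulk tissue, fewer cells of a type and less RNA per cell cannot be told apart.

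**Figure D1:**
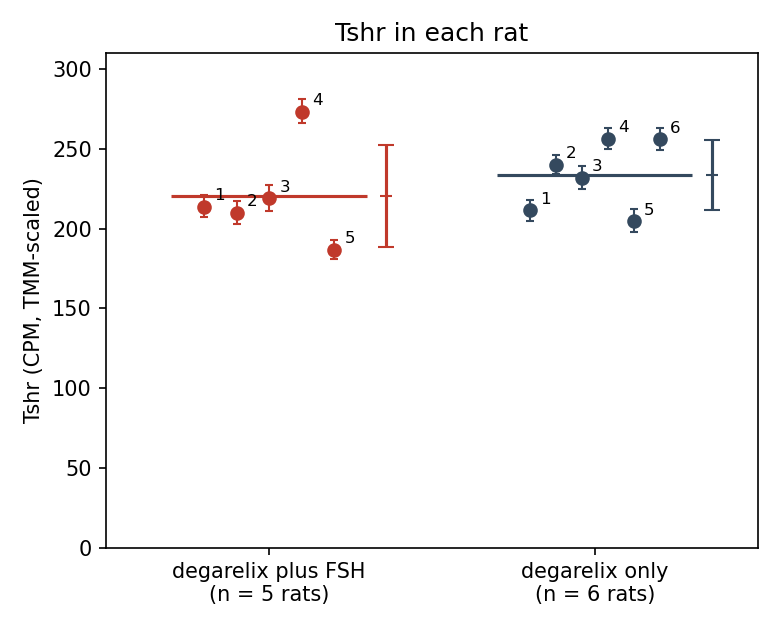
Tshr in each rat, in CPM on the vertical axis, for degarelix plus FSH (left) and degarelix only (right). Numbers are replicates, bars on points are 95% Poisson intervals of the count, horizontal lines are group means and the bars beside them are ± 1 SD. Both the highest rat (273 CPM) and the lowest (187 CPM) received FSH, and the groups overlap.

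The genes for the hormones themselves were at or near 0 in this fat, apart from Gnrh1. Of 7 hormone genes, 4 had 0 counts in all 11 libraries. These were Cga, the shared alpha subunit, Fshb and Tshb, the beta subunits of FSH and TSH, and Gpha2, the alpha subunit of thyrostimulin, another ligand of TSHR. Gphb5, the beta subunit of thyrostimulin, had 1 count, in degarelix only replicate 3. Lhb, the beta subunit of LH, had 22 counts. It reached 0.300, 0, 0.223, 0.177 and 0.0485 CPM in the degarelix plus FSH rats, against 0 to 0.211 CPM, with a median of 0.0513, in the degarelix only rats. Most of these values lie at or under the limit of a count of 0, and the groups overlapped.

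Gnrh1 (ENSRNOG00000013441), the precursor of GnRH, was found in every rat although its receptor was not. It held 1.80, 1.05, 1.11, 1.06 and 1.21 CPM in degarelix plus FSH rats, against 0.487 to 1.29 CPM, with a median of 0.946, in degarelix only rats. FSH replicate 1 lay above all other rats, and the groups overlapped. The log2 change was 0.42 ± 0.25 (SE, adjusted p = 0.340, edgeR).

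**Figure D2:**
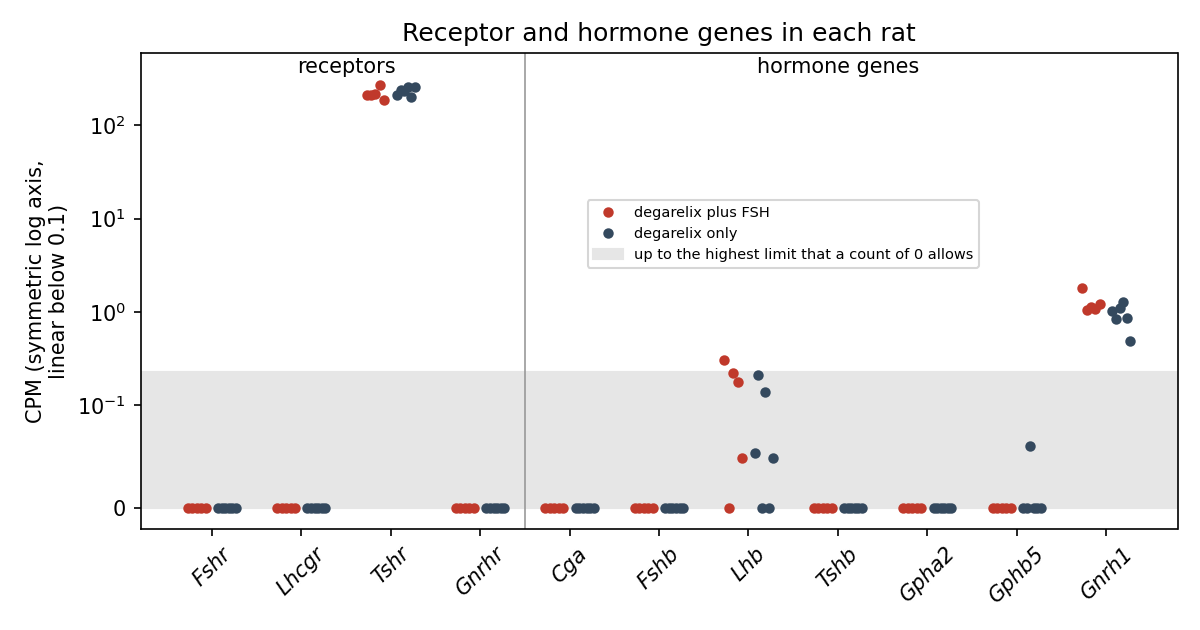
CPM of the 4 receptor genes and 7 hormone genes in each rat, on a symmetric log axis that is linear below 0.1, with degarelix plus FSH left of degarelix only at each gene. The grey band ends at 0.228 CPM, the highest limit that a count of 0 allows in a library. Tshr and Gnrh1 lie above the band in all 11 rats, and Fshr, Lhcgr and Gnrhr lie at 0 in all of them.

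The relatives of these receptors in the leucine-rich repeat family were Lgr4, Lgr5 and Lgr6, receptors of R-spondins, and Rxfp1 and Rxfp2, receptors of relaxin and of insulin-like 3. All 5 had counts, and Lgr4 alone passed the filter on low counts. Lgr4 held 22.1, 29.6, 31.8, 31.6 and 24.3 CPM in degarelix plus FSH rats, against 18.8 to 39.9 CPM, with a median of 23.3, in degarelix only rats (log2 change 0.16 ± 0.19 SE, adjusted p = 0.650, edgeR). The groups overlapped, and degarelix only replicate 4 was the highest rat. Of the 35 counts of Lgr5, all but 1 came from FSH replicate 3, where it reached 2.53 CPM. Lgr6, Rxfp1 and Rxfp2 had 23, 53 and 8 counts in all.

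The neighbours of the receptor genes were read in the same libraries. In the gene order of GRCr8, Fshr and Lhcgr lie next to each other and are followed by Gtf2a1l and Ston1, and Tshr is followed by the related pair Gtf2a1 and Ston2. Gtf2a1l and Gtf2a1 encode relatives in general transcription factor IIA, and Ston1 and Ston2 encode stonins, which are endocytic adaptors. Reads were counted beside each receptor that had none. Gtf2a1l averaged 1.47 ± 0.127 CPM with FSH and 0.985 ± 0.375 CPM without it. Ston1 averaged 17.4 ± 3.43 CPM with FSH and 27.6 ± 15.9 CPM without it, where degarelix only replicate 4 reached 57.8 CPM.

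Next to Gnrhr, the ubiquitin-activating enzyme gene Uba6 averaged 27.9 ± 1.36 CPM with FSH and 27.7 ± 1.86 CPM without it, while Tmprss11c on the other side had 0 counts. Beside Tshr, Gtf2a1 averaged 11.6 ± 0.896 CPM with FSH and 11.2 ± 1.49 CPM without it, and Ston2 had 11 counts in all. These are means ± SD with n = 5 and n = 6. Gtf2a1l, Ston1, Uba6 and Gtf2a1 did not pass in edgeR's test (adjusted p = 0.218, 0.252, 0.921 and 0.806). RefSeq also lists a Tshr pseudogene on another chromosome, which was not analysed here, and reads that it shares with Tshr would make the level of Tshr uncertain.

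**Figure D3:**
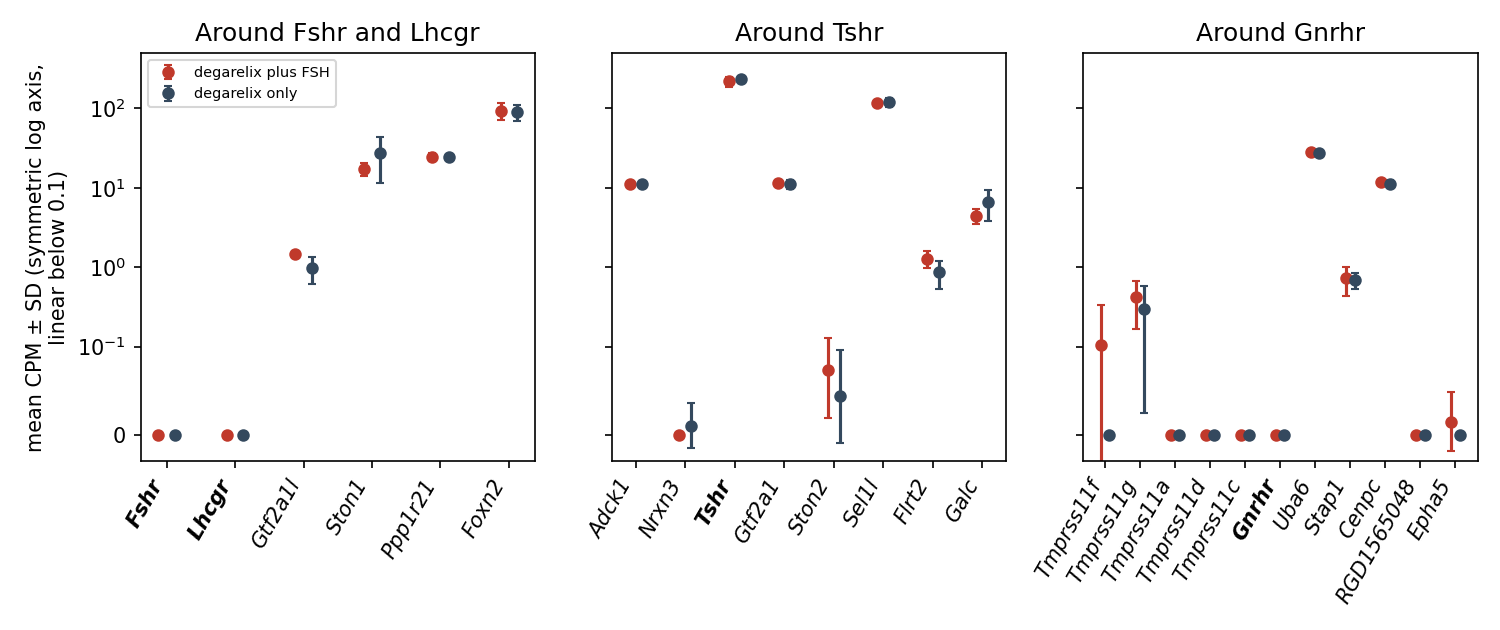
Mean CPM ± SD of each receptor (bold) and its neighbouring protein-coding genes that have a row in the table, in GRCr8 gene order, on a symmetric log axis that is linear below 0.1. Degarelix plus FSH stands left of degarelix only at each gene. Fshr, Lhcgr and Gnrhr lie at 0, whereas Gtf2a1l, Ston1 and Uba6 beside them had counts in both groups.

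Genes whose level varied most like that of Tshr were sought across the 11 rats by Pearson's r of log2 CPM after removing the group means, among 12024 genes. The highest were Vps13d, a lipid transfer protein (r = 0.954, Spearman's rho 0.927), Glg1, a Golgi glycoprotein (r = 0.953, rho 0.964), Smad2, a transducer of TGF-beta and activin signals (r = 0.948, rho 0.964), the matrix protein gene Sparc (r = 0.939, rho 0.791) and Gle1, an mRNA export factor (r = 0.927, rho 0.855). The lowest were Dynlrb1, a dynein light chain (r = -0.939, rho -0.873), Nol7 (r = -0.915, rho -0.909) and the lysosomal nuclease gene Dnase2 (r = -0.904, rho -0.827). Without FSH replicates 4 and 5, the rats farthest out for Tshr, these r values were 0.953, 0.935, 0.897, 0.850 and 0.821 for the first 5 and -0.844, -0.825 and -0.813 for the last 3. They were picked as extremes of many genes and share libraries and scaling with Tshr, so no p is given.

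Tshr was also set against 3 measures of the libraries by permutation tests with 100000 resamples. Against the summed CPM of 9 adipocyte markers, r was 0.640 (p = 0.0332, 0.0995 adjusted over the 3 relations) and rho 0.445 (p = 0.174, adjusted p = 0.249). Without FSH replicate 4 and degarelix only replicate 6, the rats farthest out for the marker sum, r pooled over the other 9 rats was 0.151. This pooled r mixes rats of both groups, and the r within each group without those rats was not computed. Within a group, r over all its rats was 0.964 with FSH (n = 5) and 0.610 without it (n = 6), values given as a description of few rats with no test. Against the total count of the library r was 0.325 (p = 0.330, adjusted p = 0.330) and rho 0.382 (p = 0.249, adjusted p = 0.249), with r = 0.290 without the 2 farthest rats. Against 5 adipocyte progenitor markers r was -0.408 (p = 0.212, adjusted p = 0.317) and rho -0.518 (p = 0.108, adjusted p = 0.249), with r = -0.340 without the 2 farthest rats. None of the 3 passed after adjustment.

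**Figure D4:**
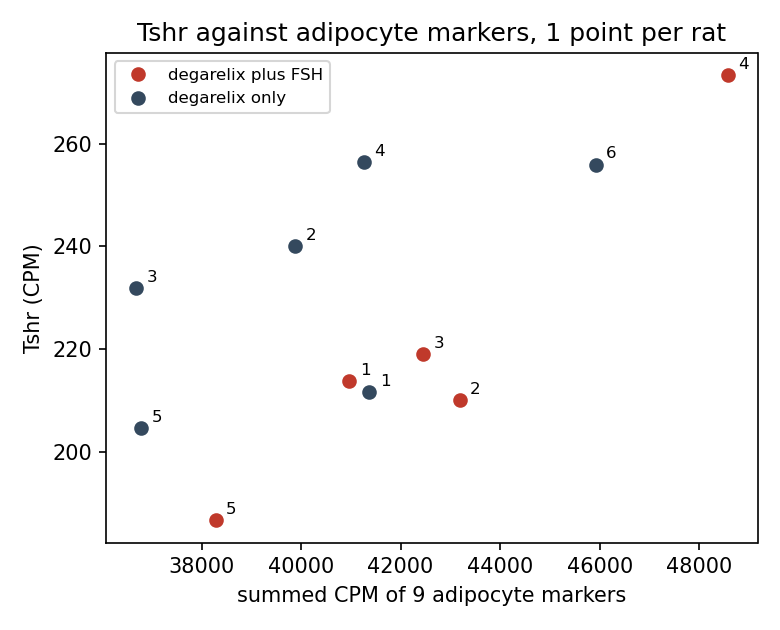
Tshr in CPM (vertical axis) against the summed CPM of 9 adipocyte markers (horizontal axis), 1 point per rat, numbered by replicate, with degarelix plus FSH and degarelix only in different colours. FSH replicate 4 and degarelix only replicate 6 lie farthest to the right, and r pooled over both groups was 0.151 without them, against 0.640 with all 11 rats. Within a group, r over all its rats was 0.964 with FSH and 0.610 without it. Neither axis starts at 0.

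Genes that act next to such receptors in the cell were then read, from lists chosen with earlier results of these data known. Of 14 genes for proximal transducers (G protein alpha subunits, receptor kinases, arrestins and the FSHR-binding adaptors Appl1 and Appl2), 13 were found and 12 tested, and none passed in edgeR (1 at an unadjusted p under 0.05, and 0 with DESeq2 or limma-voom). Their median log2 change was 0.00, as over all genes (0.01). Over all 12846 genes tested, 292 passed with edgeR, 1135 with DESeq2 and 324 with limma-voom. The share of all genes at an unadjusted p under 0.05 is not given here. Gnai2 averaged 709 ± 28.8 CPM with FSH and 704 ± 32.5 CPM without it, Gnai3 had 116 ± 5.51 CPM with FSH and 114 ± 7.37 CPM without it, and Grk6 had 67.6 ± 4.27 CPM with FSH and 69.2 ± 3.18 CPM without it. Gnas, which encodes the alpha subunit of Gs, was not analysed here.

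Of 29 genes for cAMP generation and breakdown, 24 were tested, 1 passed as higher and 1 as lower, beside 1.21% and 1.07% of all genes tested, and the median log2 change was -0.08. At an unadjusted p under 0.05 there were 7. With DESeq2 4 passed (1135 of all 12846 genes did), and with limma-voom 2 (324 of all genes did). Pde2a (ENSRNOG00000019560), a cyclic nucleotide phosphodiesterase, held 287, 269.9, 246, 211 and 286 CPM in degarelix plus FSH rats, against 182 to 215 CPM, with a median of 194, in degarelix only rats (log2 change 0.42 ± 0.08 SE, adjusted p = 0.0328, edgeR). FSH replicate 4 lay inside the degarelix only range. Prkar2a (ENSRNOG00000020284), a regulatory subunit of protein kinase A, held 6.37, 7.59, 6.91, 8.95 and 7.66 CPM in degarelix plus FSH rats, against 9.13 to 14.96 CPM, with a median of 11.4, in degarelix only rats (log2 change -0.62 ± 0.13 SE, adjusted p = 0.0372, edgeR). These groups did not overlap, and the share of all genes tested for which this held is not given here. When single rats were dropped, Pde2a kept its call if that rat was number 3 or 4 on degarelix only or number 4 on FSH, and lost it otherwise (highest adjusted p = 0.0844). Prkar2a kept it if the rat was number 2, 3 or 4 on degarelix only or number 4 on FSH, and lost it otherwise (highest adjusted p = 0.0932). Prkar2b averaged 874 ± 90.6 CPM with FSH and 1080 ± 138 CPM without it (log2 change -0.30 ± 0.10, adjusted p = 0.124), and Adcy6 averaged 409 ± 40.3 CPM with FSH and 440 ± 54.5 CPM without it (adjusted p = 0.547).

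Of 17 cAMP-responsive genes, 14 were tested and 1 passed, as lower, beside 1.07% of all genes tested. At an unadjusted p under 0.05 there were 2. With DESeq2 2 passed (1135 of all 12846 genes did), and with limma-voom 1 (324 of all genes did). The median log2 change was 0.27, with 11 above 0 and 3 below. It was the transcription factor gene Nfil3 (ENSRNOG00000011668), with 6.85, 7.22, 8.02, 7.54 and 5.62 CPM in degarelix plus FSH rats, against 8.58 to 11.7 CPM, with a median of 10.5, in degarelix only rats (log2 change -0.55 ± 0.12 SE, adjusted p = 0.0367, edgeR). The groups did not overlap, and dropping any rat other than number 4 of either group ended the call (highest adjusted p = 0.0875). Named after its values were seen, Sik1, which encodes a salt-inducible kinase, held 55.1, 91.8, 61.6, 60.8 and 62.3 CPM in degarelix plus FSH rats, against 26.1 to 52.2 CPM, with a median of 47.6, in degarelix only rats. Its groups did not overlap either, but it did not pass (log2 change 0.62 ± 0.19 SE, adjusted p = 0.0977, edgeR). For Nfil3 and Sik1 too, no share of all genes is given beside the lack of overlap. Pck1, which encodes the enzyme of glyceroneogenesis in fat, averaged 3758 ± 1384 CPM with FSH and 2435 ± 1856 CPM without it (adjusted p = 0.490). Dusp1 and Per1 had log2 changes of 0.06 ± 0.23 and 0.11 ± 0.19.

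Genes that gonadotropins raise in granulosa cells were also read. Of 17, 10 were tested and none passed in edgeR, and the median log2 change was 0.14. At an unadjusted p under 0.05 there were 4. With DESeq2 1 passed (1135 of all 12846 genes did), and with limma-voom 0 (324 of all genes did). Cyp19a1, the aromatase gene that FSH induces in granulosa cells, had 0 counts in all 11 libraries. Lhcgr is on this list too and adds no separate reading. Inhbb averaged 143 ± 35.2 CPM with FSH and 144 ± 63.1 CPM without it, Adamts1 had 72.3 ± 9.61 CPM with FSH and 81.4 ± 27.7 CPM without it, and Sgk1 had 60.4 ± 7.34 CPM with FSH and 40.6 ± 10.7 CPM without it (log2 change 0.57 ± 0.17, adjusted p = 0.0949). Named after their values were seen, Cyp11a1, the first enzyme of steroid synthesis, averaged 39.7 ± 3.63 CPM with FSH and 36.2 ± 2.87 CPM without it, and Star, the carrier of cholesterol into mitochondria, had log2 change -0.57 ± 0.23 (adjusted p = 0.175). Inha and Ccnd2, also named after their values were seen, had log2 changes of 0.43 ± 0.19 and 0.55 ± 0.25 (adjusted p = 0.195 and 0.211, edgeR). Of the 10 tested, 6 had log2 changes above 0 and 4 below.

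Other hormone receptors were read with the same libraries. Of 17 receptors of fat cells that couple to Gs, Glp1r had 0 counts in all 11 libraries, 14 were tested and 2 passed, both as higher, beside 1.21% of all genes tested. At an unadjusted p under 0.05 there were 4. With DESeq2 4 passed (1135 of all 12846 genes did), and with limma-voom 2 (324 of all genes did). Ptger2 (ENSRNOG00000050968), a prostaglandin E2 receptor, held 7.99, 11.5, 10.7, 8.13 and 10.2 CPM in degarelix plus FSH rats, against 4.35 to 6.01 CPM, with a median of 5.46, in degarelix only rats (log2 change 0.88 ± 0.13 SE, adjusted p = 0.00980, edgeR). It passed with any single library left out. Gipr, the receptor of the gut hormone GIP, held 33.5, 68.9, 33.0, 43.3 and 49.2 CPM in degarelix plus FSH rats, against 14.9 to 27.4 CPM, with a median of 24.98, in degarelix only rats (log2 change 1.02 ± 0.22 SE, adjusted p = 0.0397, edgeR). Neither gene's groups overlapped, and the share of all genes tested for which this held is not given. The call of Gipr ended with no filter on low counts (adjusted p = 0.0540), and on dropping any rat other than number 4 on degarelix only or numbers 3 and 4 on FSH (highest adjusted p = 0.0943). Adrb3, the beta-adrenergic receptor of fat cells, averaged 299 ± 61.6 CPM with FSH and 288 ± 24.1 CPM without it (adjusted p = 0.835), and Pth1r and Mc2r had log2 changes of -0.29 ± 0.24 and 0.13 ± 0.26. The median log2 change of the tested receptors was 0.17.

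Of 10 receptors of other reproductive hormones, Esr2 and Pgr, the estrogen receptor beta and progesterone receptor genes, had 0 counts in all 11 libraries. Of the 6 tested, 1 passed, as lower, beside 1.07% of all genes tested. There was also 1 with DESeq2 (1135 of all 12846 genes), with limma-voom (324 of all genes) and at an unadjusted p under 0.05. It was the oxytocin receptor gene Oxtr (log2 change -1.17 ± 0.22 SE, adjusted p = 0.0311, edgeR), with 52.8, 46.8, 44.0, 59.997 and 56.6 CPM in degarelix plus FSH rats, against 61.9 to 159 CPM, with a median of 120.7, in degarelix only rats. Dropping any rat other than numbers 2, 3 and 4 on degarelix only or number 4 on FSH ended the call (highest adjusted p = 0.0818). Esr1, the estrogen receptor alpha gene, held 35.7, 110.9, 96.1, 155 and 52.5 CPM in degarelix plus FSH rats, against 11.5 to 81.4 CPM, with a median of 50.4, in degarelix only rats, a spread too wide to pass (log2 change 0.89 ± 0.46, adjusted p = 0.274). Ghr, the growth hormone receptor gene, averaged 737 ± 135 CPM with FSH and 869 ± 97.9 CPM without it (adjusted p = 0.280). The median log2 change of the 6 was -0.21.

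**Figure D5:**
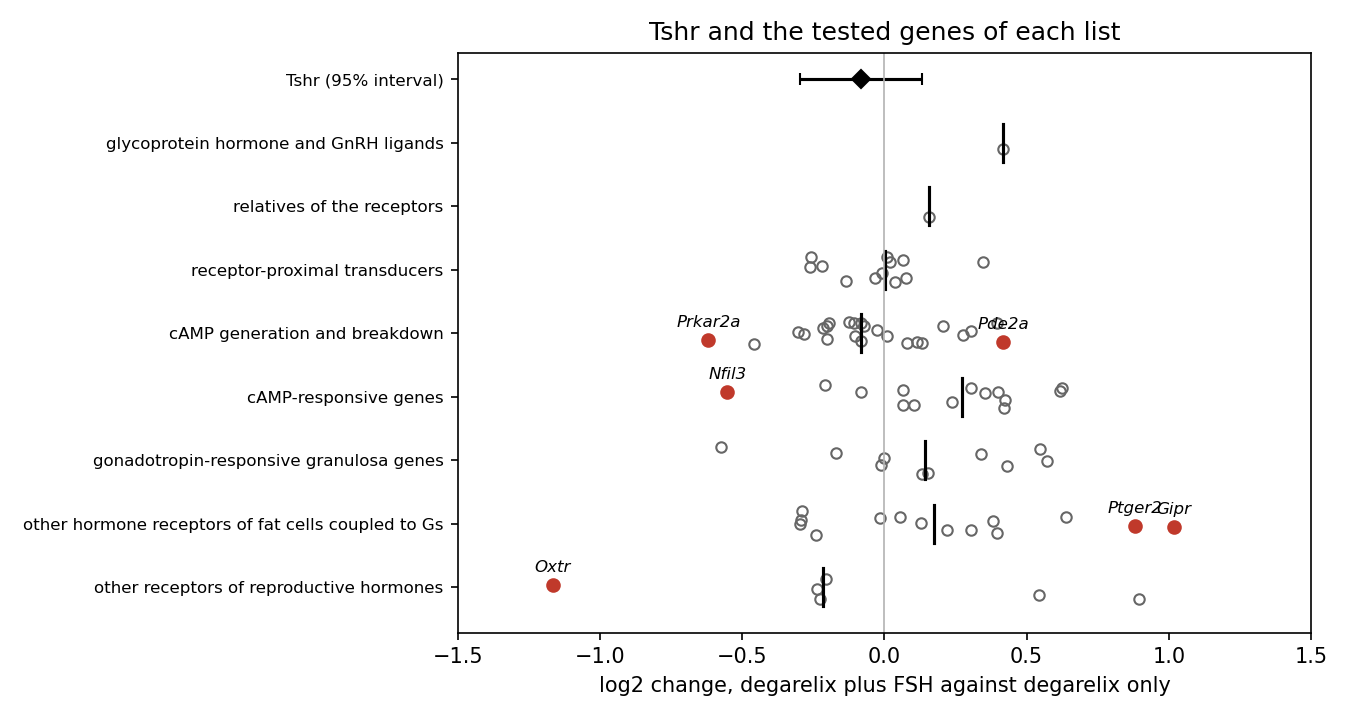
Log2 change, degarelix plus FSH against degarelix only, of Tshr (diamond with its 95% interval) and of the tested genes of 8 lists (circles), with the list medians as vertical bars. Filled circles passed an adjusted p of 0.05 over all genes. The interval of Tshr, from -0.30 to 0.13, holds 0. From top to bottom, the lists held 1, 1, 12, 24, 14, 10, 14 and 6 tested genes, with Pde4b and Pde4d on 2 lists. Of these genes, 6 passed, beside 2.27% of all genes tested. The lists were chosen with earlier results of these data known, so this is no test of enrichment.

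The markers of tissues that carry these receptors elsewhere were checked. Of the granulosa and theca markers other than Fshr, Foxl2 and Cyp19a1 were at 0, and the list summed to 1.77 to 2.71 CPM in degarelix plus FSH rats and 1.64 to 2.17 CPM in degarelix only rats. Inha (345 counts over all libraries) and Amh (70 counts) had counts in every rat, and Cyp17a1 had 2 counts. Of the thyroid follicle markers, Nkx2-1 and Foxe1 were at 0, and the summed level was 0.294 to 1.16 CPM with FSH and 0.507 to 1.73 CPM without it. Tg (130 counts) and Pax8 (51 counts) had counts in every rat, and Slc5a5 had 8 counts. Of the pituitary markers other than Gnrhr, Gh1, Prl and Cga were at 0, and the summed level, mostly Pomc, was 2.89 to 5.10 CPM with FSH and 3.22 to 6.20 CPM without it. Pou1f1 had 20 counts. Umod, Aqp2 and Slc34a1 of the kidney and Cyp11b2 and Nr5a1 of the adrenal cortex were at 0. The kidney markers with counts were Nphs1 (214 counts, in every rat), Lrp2 (23 counts) and Slc12a1 (3 counts). The kidney markers summed to 0.436 to 1.88 CPM with FSH and 0.270 to 2.48 CPM without it, and the adrenal markers, mostly Cyp11a1 and Mc2r, to 69.8 to 96.0 CPM with FSH and 56.7 to 95.8 CPM without it. The 5 testis or Sertoli markers summed to 5.59 to 46.9 CPM with FSH and 5.201 to 6.76 CPM without it, mostly through Dhh.

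The tissue held the markers of fat. The 9 adipocyte markers summed to 42695 ± 3786 CPM with FSH and 40316 ± 3443 CPM without it (p = 0.325, two-sided exact permutation test, adjusted p = 0.519 over 12 lists). The sum was mostly Fabp4 and Adipoq. Of the 9 markers, 5 had log2 changes above 0 and 4 below. None passed in edgeR, and 3 did with DESeq2, where 1135 of all 12846 genes did. The endothelial markers summed to 1657 ± 298 CPM with FSH and 1296 ± 130.1 CPM without it (exact permutation p = 0.0216, adjusted p = 0.218; 0.0524 unadjusted without FSH replicate 1). All 6 of these markers were tested and had log2 changes above 0 (median 0.35). At an unadjusted p under 0.05 there were 5, and 3 passed with DESeq2 and 1 with limma-voom. In edgeR, only Tek passed as higher, beside 1.21% of all genes tested (135 ± 19.4 CPM with FSH and 100.03 ± 9.92 CPM without it, log2 change 0.44 ± 0.10, adjusted p = 0.0431). That call ended with no filter on low counts (adjusted p = 0.0512) and on dropping any rat other than numbers 3 and 4 on degarelix only or number 4 on FSH (highest adjusted p = 0.106). The part of these cells in the changes of Pde2a, Ptger2 and Gipr was not tested. The remaining lists had adjusted p from 0.218 to 0.989, and their ranges overlapped between the groups. Progenitor markers summed to 442 to 590 CPM with FSH and 362 to 634 CPM without it. Mural and smooth muscle markers summed to 925 to 1194 CPM with FSH and 737 to 1038 CPM without it. Macrophage markers summed to 149 to 315 CPM with FSH and 156 to 349 CPM without it, and lymphocyte markers to 22.8 to 49.7 CPM with FSH and 22.3 to 50.4 CPM without it.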

How the data were processed

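Total RNA was made into stranded mRNA-seq libraries and sequenced as paired ends, per the labels' protocols. STAR, edgeR, DESeq2 and build rn6 are named in the submitters' processing notes, with no role or version. The authors deposited raw read counts, 1 whole number per Ensembl gene and rat. How reads were counted, and against which annotation, is not given in the sources used here. Therefore overlapping and antisense genes are uncertain. Pcmt1 was left out because 1 cell is no number. The members and gene lists were chosen with earlier results of these data known.

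The model over 11 libraries used edgeR 4.0.16 (R 4.3.3; TMM scaling, filterByExpr, robust quasi-likelihood F test, group only, 9 residual degrees of freedom; Benjamini-Hochberg, threshold 0.05, two-sided). CPM are relative to the TMM-scaled total of the tested genes, except the limits of a count of 0, which use the library total. CPM are not divided by gene length, so levels were ranked between genes only to choose which list genes to name. Rats are separate animals per the labels, and no pair of libraries was alike enough to count as 1 (chi-square per degree of freedom of 21.3 or more). Of the list symbols, 176 matched directly, 2 by synonym (GRCr8 table) and 5 not at all. Genes were named by rule: the 4 members, list genes past the threshold, the 3 of highest mean CPM per gene list, hormone genes with counts, and the genes most like Tshr. Other names were chosen after seeing values. Promoter sequence is RefSeq's (GRCr8) and matched 3 of the 4 members. Tshr was not matched. The edgeR and permutation steps were tested on simulated data. Alternatives were 2 scalings, 2 filters, each library left out, a replicate block, DESeq2 1.42.0, limma-voom (limma 3.58.1) and no robust estimation. Some marker genes are not reported here.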

Additional observations from a re-analysis of the deposited data

Results flagged for a closer look

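Values were checked for a library that stands apart within its group, as a gap to the nearest rat that is large for the group's range. Of 126 groups of values checked, 11 stood out, and chance alone sets apart about 1 group in 20.

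Of the receptor family and its hormones, Gnrh1 reached 1.80 CPM in FSH replicate 1, against 1.05 to 1.21 CPM in the other degarelix plus FSH rats. Gphb5 was at 0.0606 CPM, a single count, in degarelix only replicate 3 and at 0 in the other rats. Lgr4 was at 39.9 CPM in degarelix only replicate 4, against 18.8 to 25.1 CPM in its group. Lgr5 was at 2.53 CPM in FSH replicate 3, against 0 to 0.0601 CPM in its group. Rxfp2 was at 0.195 CPM in degarelix only replicate 6, against 0 to 0.0606 CPM in its group.

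Per1 was at 91.5 CPM in FSH replicate 4, below the 98.8 to 102 CPM of its group. Sik1 was at 91.8 CPM in FSH replicate 2, against 55.1 to 62.3 CPM in its group. In degarelix only replicate 4, Mc2r was at 58.5 CPM, against 21.3 to 34.4 CPM in its group, and Ston1 at 57.8 CPM, against 14.8 to 30.4 CPM. Tek was at 119 CPM in degarelix only replicate 3, against 90.3 to 100.08 CPM in its group. The summed testis or Sertoli markers were at 46.9 CPM in FSH replicate 3, against 5.59 to 12.5 CPM in its group.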

How the results depend on the processing

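The log2 change of Tshr kept its sign and did not pass under any of the 8 other settings tried (-0.09 to -0.06, adjusted p from 0.623 to 0.670) or with any library left out (-0.17 without FSH replicate 4 to -0.03 without FSH replicate 5, adjusted p from 0.226 to 0.901). The mean limit of a count of 0 per library, 0.168 CPM, became 0.207 CPM with an exact Poisson bound and 0.0149 CPM with all libraries pooled, 0.0367 CPM over degarelix plus FSH libraries and 0.0251 CPM over degarelix only libraries. The count of genes past the threshold, 292, was 30 to 551 with 1 library left out, 1135 with DESeq2 and 14 with the replicate number as a block, where no list gene kept its call. The numbers are taken as names only, since same-numbered rats did not all deviate together (r from -0.110 to 0.130). The difference of the summed markers turned sign with a library left out for adipocyte progenitor (-12.2 to 42.1 CPM), macrophage (-23.8 to 27.5 CPM) and kidney markers (-0.118 to 0.325 CPM), and as a mean of log2 CPM for adipocyte (-0.0676) and adrenal markers (-0.00422). The cause of these shifts was not tested.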
